A study of Mus musculus with 6 samples.

Results

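The inner mitochondrial membrane holds the respiratory chain, whose complexes I to IV pass electrons from NADH and succinate to oxygen and whose complex V, the ATP synthase, makes ATP. The genes described here are the nuclear-encoded subunits of these complexes. They were chosen by a rule on names, with earlier results of these data known. For complex I it took the rows of the deposited gene table whose symbols begin with Nduf and a subunit letter and number. For complex II it took Sdha to Sdhd. For complexes III, IV and V it took symbols that begin with Uqcr, with Cox4 to Cox8 and with Atp5. Symbols that end in -ps were left out. This gave 85 of the 27240 genes in the table: 39 for complex I, 4 for complex II, 8 for complex III, 17 for complex IV and 17 for complex V.

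The RNA came from mouse primary peritoneal macrophages, phagocytes washed from the abdominal cavity. There were 3 wild-type libraries (WT) and 3 knockout libraries (KO), and all 6 were from cells given oxidised low-density lipoprotein (oxLDL), the modified cholesterol particle that loads macrophages with lipid in atherosclerosis, so no untreated cells enter the comparison. The series title names the kinase DCLK1 and its partner IKKβ, while the labels say only KO without naming the gene, the allele, the strain, the age of the animals or how oxLDL was given. Whether the libraries of a group came from separate animals or cultures is not stated, so the p-values measure the spread between these libraries, which may be technical.

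Complex I takes electrons from NADH, complex II takes them from succinate, and both hand them to ubiquinone, from which complex III passes them to cytochrome c and complex IV to oxygen. Complexes I, III and IV pump protons, and complex V lets the protons flow back to drive ATP synthesis. Except in complex II, the subunits come from both genomes: the mitochondrial genome encodes some membrane subunits and the nucleus encodes the rest. In macrophages, a shift away from respiration towards glycolysis is known from inflammatory activation, and succinate and reverse electron flow through complex I have been linked to inflammatory signalling.

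Nuclear genes for respiratory chain subunits are known targets of the transcription factors NRF1, GABP (an ETS factor), YY1 and ERR, so the promoters were searched for their textbook letters on both strands, in the 250 bases before and 50 after each RefSeq gene start. Of the 85 subunit genes, 67 had a promoter in the table. The palindrome bound by NRF1 stood in 5 of the 67 (7.46%), against 1.07% of the 27025 genes with a promoter, whether or not expressed in these cells. The windows that carry it upstream of the RefSeq start are shown because NRF1 is the factor best known for these genes. They read as follows 5′ to 3′ on the gene's strand, with the palindrome in capitals (RefSeq, GRCm38.p6).
Atp5g2, chr15:102671055-102671114, minus strand: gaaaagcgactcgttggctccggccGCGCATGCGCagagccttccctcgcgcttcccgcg
Atp5k, chr5:108434415-108434474, minus strand: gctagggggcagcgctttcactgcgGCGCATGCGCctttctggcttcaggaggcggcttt
Cox6a1, chr5:115349086-115349145, minus strand: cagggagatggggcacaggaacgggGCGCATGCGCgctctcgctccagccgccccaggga
Ndufa11, chr17:56717677-56717736, plus strand: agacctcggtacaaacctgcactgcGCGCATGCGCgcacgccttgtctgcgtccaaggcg

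The palindrome ended 32 bases before the RefSeq start in Atp5g2, 40 in Atp5k, 50 in Ndufa11 and 152 in Cox6a1. The fifth match, in Uqcrc1, lay after the start. The deposited starts differ from those of RefSeq for some of these genes. The Atp5g2 window lies inside the gene as deposited, and the deposited start of Atp5k falls within its palindrome. The ETS letters CCGGAAG stood in 17 of the 67 genes (25.4%, against 9.93% of all genes). The YY1 letters AAGATGGC stood in 10 (14.9% against 3.19%) and the ERR letters CAAGGTCA in 4 (5.97% against 1.76%). The CRE letters TGACGTCA stood in 4 as well (5.97% against 2.03%). The SP1 letters GGGCGG (40.3% against 38.2%) and the NF-Y letters CCAAT (43.3% against 41.1%) stood at shares closer to those of all genes, and TATAAA stood at a lower share (10.4% against 15.7%). These are matches of letters, not measured binding. The log2 fold changes (knockout over wild type) of the genes with the NRF1 palindrome were -0.11 for Atp5g2, -0.12 for Atp5k, -0.04 for Cox6a1, 0.10 for Ndufa11 and 0.11 for Uqcrc1, and none passed the test described next.

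The 6 libraries held 68053008 to 79090732 counts, so that 3 counts in a library correspond to 0.0382 to 0.0441 CPM (counts scaled to library size, scaled by TMM, edgeR's correction for library composition). Dclk1 stood at 7.13 ± 0.383 CPM in the wild-type and 5.53 ± 0.370 CPM in the knockout libraries (SD, n = 3). The 2 groups did not overlap, the log2 fold change was -0.37 (SE 0.116, edgeR adjusted p = 0.332), and an exact two-sided permutation test gave p = 0.1, the smallest that 3 against 3 allows. Counts over a whole gene include exons outside a deletion, and the labels describe none. Macrophage markers summed to 20381 to 21621 CPM in the wild-type and 12610 to 12756 CPM in the knockout libraries, a sum that contains the lysozyme gene Lyz2. Of the 8 macrophage markers, 2 were lower and 1 higher without overlap between the groups, and the other 5 overlapped. Over all genes tested, 8.89% were lower and 8.68% higher without overlap. The T and NK cell markers summed to 13.7 to 15.6 against 8.40 to 10.3 CPM (4 of 8 lower without overlap, 0 higher), and the B cell markers to 4.32 to 5.06 against 5.11 to 6.40 CPM (0 of 6 lower, 1 higher). The fibroblast and mesothelial markers summed to 79.6 to 85.5 against 62.6 to 74.2 CPM, with 2 of 8 lower and 1 higher. The neutrophil, dendritic cell and mast cell sums were also lower in the knockout libraries, with 1 marker lower without overlap in each list and 1 neutrophil marker higher, and the erythroid sums overlapped. The neutrophil markers Ly6g and Retnlg and the plasmacytoid dendritic cell marker Siglech were at 0. Summed ribosomal RNA rows stood at 1364 to 1426 CPM in the wild-type libraries and at 1808, 2475 and 3538 CPM in knockout libraries 1 to 3. That sum took every row annotated as ribosomal RNA and did not set mitochondrial ribosomal RNA apart. An alternative fit, given below, left mitochondrially encoded and ribosomal RNA rows out of the library sizes. Beyond that fit, the part of the marker and ribosomal RNA differences in any result below was not tested. In bulk RNA, fewer cells of a type and less RNA per cell cannot be told apart.

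The macrophages expressed nearly the whole nuclear-encoded chain, and no subunit gene passed the test between the genotypes. Of the 85 genes, 81 passed the filter on low counts. None of the 81 reached an adjusted p under 0.05 in edgeR's quasi-likelihood test with Benjamini-Hochberg adjustment over all 16239 genes tested, of which 11 did (0.0677%; 7 lower, 0.0431%, and 4 higher, 0.0246%). At an unadjusted p under 0.05 there were 9 subunit genes (11.1%), against 10.4% of all genes tested. Of the 9, 7 were lower in the knockout libraries (5.71% of all genes) and 2 higher (4.73% of all genes). DESeq2, run as an alternative, called 1 subunit gene, Ndufb2, where it called 455 of the 12762 genes to which it gave an adjusted p (3.57%). The 3 knockout values lay wholly below or above the 3 wild-type values for 14 of the 81 genes (17.3%), against 17.6% of all genes tested. They lay below for 9 (8.89% of all genes) and above for 5 (8.68% of all genes).

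The intervals show how large a difference could have gone unseen. The median log2 fold change of the 81 genes was -0.02, beside -0.0019 for all genes tested, with 50 genes below 0 and 31 above. The 95% interval of the fold change lay within 1.2-fold in either direction for 47 of the 81 genes, within 1.5-fold for 73 and within 2-fold for 77. Summed over the 85 rows, the subunits took 0.493% ± 0.0041 of all counts in the wild-type and 0.494% ± 0.014 in the knockout libraries (SD, n = 3). Their summed FPKM (the authors' scale of fragments per kilobase of gene and sequencing depth) was 2669 ± 30.3 against 2641 ± 80.1.

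Complex I had 38 tested genes, with a median log2 fold change of -0.01 (20 below 0 and 18 above) and intervals within 1.2-fold for 20 of them. Its summed FPKM was 802 ± 19.0 in the wild-type and 797 ± 20.4 in the knockout libraries. The most highly expressed by FPKM were Ndufa1, Ndufa2 and Ndufa8, all accessory subunits, and these 3 had log2 fold changes of -0.04, -0.18 and -0.06 with edgeR adjusted p of 0.874, 0.586 and 0.770. The catalytic core is built from Ndufs and Ndufv subunits, which carry the flavin and the iron-sulphur clusters. Among them Ndufs1, a cluster-bearing subunit chosen for mention after its values were seen, stood at 62.5, 64.7 and 61.8 CPM in the wild-type and 71.5, 67.7 and 65.2 CPM in the knockout libraries. Its groups did not overlap, and the log2 fold change of 0.11 had an edgeR adjusted p of 0.525.

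The gene with the smallest p of all 81 was Ndufb2 (chr6:39592574-39603382, plus strand), an accessory subunit of the membrane arm. It stood at 12.3, 11.8 and 12.9 CPM in the wild-type and at 8.62, 10.4 and 8.13 CPM in the knockout libraries. All 3 knockout libraries were below all 3 wild-type libraries. The log2 fold change was -0.45 (SE 0.117), a fold of 0.734 with a 95% interval of 0.607 to 0.888, and the edgeR adjusted p was 0.228. In DESeq2 the same gene had a log2 fold change of -0.44 and an adjusted p of 0.0446, so its call depended on the tool. Ndufb2 was among the least abundant subunits, at 1.95 ± 0.0943 FPKM in the wild-type and 1.45 ± 0.191 FPKM in the knockout libraries.

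Ndufb5, a further accessory subunit of the membrane arm, lay in the other direction, at 24.0, 27.7 and 24.3 CPM in the wild-type and 28.1, 32.2 and 31.4 CPM in the knockout libraries. The groups were adjacent without overlap, and the log2 fold change was 0.27 (SE 0.0853, edgeR adjusted p = 0.326). Of the 50-base sequences in its transcripts, 11.2% also occur on the opposite strand in Mrpl47, and the sources used here do not say whether strand was used in counting. Ndufb8, a membrane-arm subunit often used as a protein marker of complex I, stood at 45.6, 44.6 and 47.2 CPM against 41.3, 42.6 and 39.6 CPM. Every knockout library was below every wild-type library, by a log2 fold change of -0.15 (SE 0.0555, edgeR adjusted p = 0.390). Thus subunits of the same arm of the complex lay on both sides of 0, and none passed the test in edgeR.

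**Figure D1:**
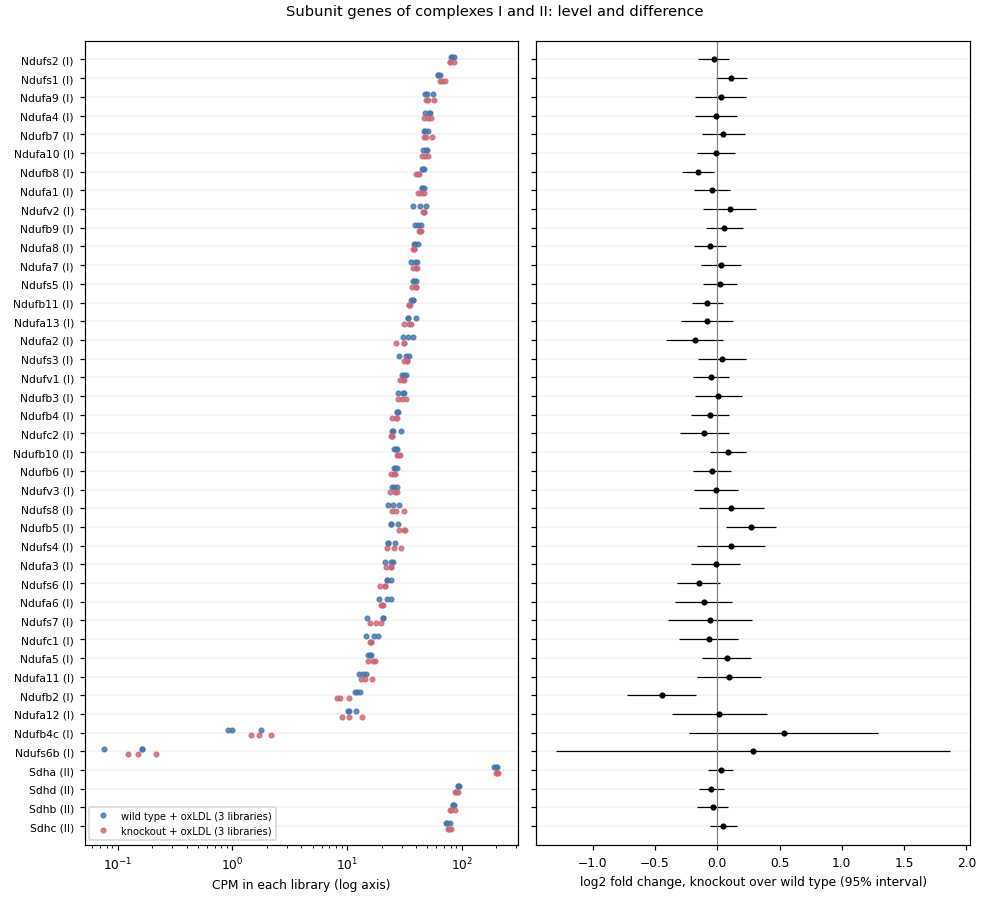
Tested subunit genes of complexes I and II (complex in parentheses). Left, CPM in each of the 3 wild-type (blue) and 3 knockout (red) libraries on a log axis; right, log2 fold change of knockout over wild type with its 95% interval. Most points lie near 0, Ndufb2 at -0.45, Ndufb8 at -0.15 and Ndufb5 at 0.27 have intervals clear of 0, and the 2 low rows Ndufb4c and Ndufs6b have the widest intervals.

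Complex II, succinate dehydrogenase, had all 4 intervals within 1.2-fold. Sdha, the flavoprotein that oxidises succinate, stood at 192, 205 and 199.5 CPM in the wild-type and 197, 202 and 208 CPM in the knockout libraries. These values interleave, and the log2 fold change was 0.03 (95% interval -0.07 to 0.13, edgeR adjusted p = 0.886). Sdhb, the iron-sulphur subunit, had a log2 fold change of -0.04, and the membrane anchors Sdhc and Sdhd had 0.05 and -0.05. The smallest adjusted p of the 4 genes was 0.776 in edgeR, and the summed FPKM was 165.5 ± 1.92 against 165.4 ± 3.43.

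Complex III was represented by 8 genes, 6 with intervals within 1.2-fold and all 8 within 1.5-fold, with a median log2 fold change of 0.0042. Uqcrc1, a core protein of the matrix side, had the smallest p. It stood at 103, 100.1 and 97.5 CPM in the wild-type and 106, 108 and 110.1 CPM in the knockout libraries. The knockout libraries were all above the wild-type libraries by a narrow margin, with a log2 fold change of 0.11 (SE 0.0434, edgeR adjusted p = 0.434). Uqcrc2, its partner core protein, had a log2 fold change of 0.04, and Uqcrfs1, the Rieske iron-sulphur protein that passes electrons on towards cytochrome c, had -0.02. The small subunits Uqcr10, Uqcrb and Uqcr11 had 0.02, 0.03 and -0.12. The remaining nuclear-encoded catalytic subunit, Cyc1 (cytochrome c1), does not match the naming rule and stood at 47.1 ± 4.10 against 46.1 ± 3.18 CPM (edgeR adjusted p = 0.934).

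Complex IV had the lowest median of the 5 complexes, -0.07, with 11 of 14 tested genes below 0 and intervals within 1.2-fold for 5. Its median moved to -0.14 without knockout library 1. Cox8a, the small subunit with the highest mean FPKM of all subunit genes, stood at 87.4, 93.6 and 89.7 CPM in the wild-type and 84.8, 79.3 and 77.9 CPM in the knockout libraries. The knockout values were all lower, by a log2 fold change of -0.16 (SE 0.053, edgeR adjusted p = 0.351). Cox6c stood at 77.4, 66.7 and 69.1 CPM against 64.3, 64.8 and 61.1 CPM (log2 fold change -0.16, edgeR adjusted p = 0.450). Cox6b1, a subunit facing the intermembrane space, lay the other way, with knockout values of 96.5, 98.0 and 93.3 CPM above wild-type values of 90.3, 90.5 and 92.1 CPM (log2 fold change 0.08, edgeR adjusted p = 0.591). Cox6a1, the third most abundant by FPKM, had a log2 fold change of -0.04.

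Several complex IV subunits exist as tissue isoforms, and the macrophages expressed mainly the widely expressed isoform of each pair. By FPKM, which corrects for length, Cox6a1 was at 111 ± 4.52 in the wild-type libraries where its heart and muscle isoform Cox6a2 was at 1.95 ± 0.481. Cox7a2 was at 50.9 ± 4.03 FPKM where the muscle isoform Cox7a1 was at 0.824 ± 0.164. Cox8b, the muscle isoform of Cox8a, had 0 counts in 5 libraries and 3 in knockout library 3. Cox4i2, the lung isoform of Cox4i1, had 5 counts in wild-type library 1 and 0 elsewhere. Cox6b2, the testis isoform of Cox6b1, had 0, 7 and 10 counts in the wild-type and 0 in every knockout library. These last 3 did not pass the filter, and no fold change is given.

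Among the isoforms, Cox7a1 had the largest fitted difference of all subunit genes, on few counts. It had 34, 30 and 47 counts in the wild-type and 18, 8 and 12 in the knockout libraries. All knockout counts were below the wild-type counts. The log2 fold change was -1.54 (SE 0.518), a fold of 0.345 with a 95% interval of 0.149 to 0.798, and the edgeR adjusted p was 0.357. The fibroblast and mesothelial sums given above were also lower in the knockout libraries, with 2 of the 8 markers lower and 1 higher without overlap. So were the macrophage, T and NK, neutrophil, dendritic and mast cell sums, while the B cell sums were higher and the erythroid sums overlapped. The part of any of these in the Cox7a1 values was not tested.

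**Figure D2:**
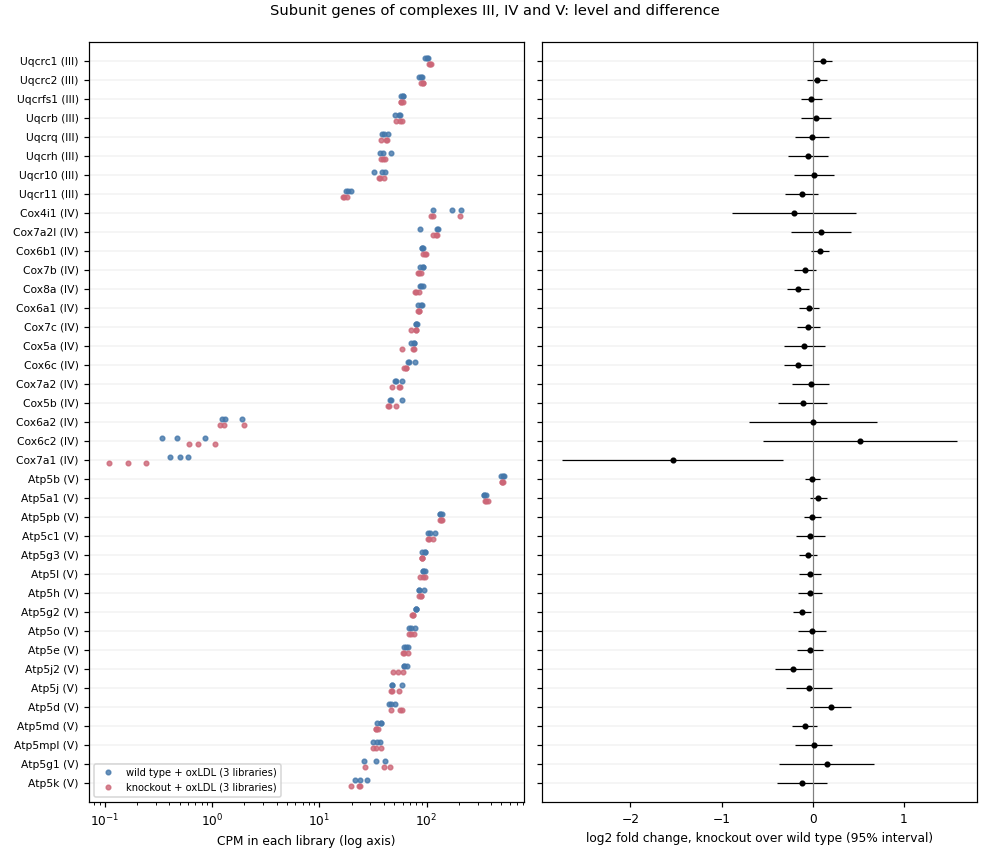
Tested subunit genes of complexes III, IV and V (complex in parentheses). Left, CPM in each of the 3 wild-type (blue) and 3 knockout (red) libraries on a log axis; right, log2 fold change of knockout over wild type with its 95% interval. The widely expressed subunits lie above 10 CPM, most with intervals near 0, but Cox4i1 and Atp5g1 have wide ones. Intervals of Uqcrc1, Cox6c, Cox8a, Atp5g2 and Atp5j2 are clear of 0. Cox6a2, Cox6c2 and Cox7a1 lie at or below 2 CPM, and Cox7a1 is at -1.54 with an interval clear of 0.

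Complex V had 17 tested genes, a median log2 fold change of -0.03 with 13 genes below 0, and summed FPKM of 636 ± 8.54 against 635 ± 9.70. Atp5b, the catalytic beta subunit, was the most abundant subunit gene per kilobase of its principal transcript, at 267 CPM per kilobase. It stood at 511, 528 and 497 CPM in the wild-type and 505, 519 and 509.7 CPM in the knockout libraries. The groups overlapped, and the 95% interval of the log2 fold change, -0.08 to 0.08, was narrow. Atp5a1, the alpha subunit, had a log2 fold change of 0.06 and Atp5h, a subunit of the stalk that holds the motor still, -0.03. Atp5d, the delta subunit of the rotor, had 0.20 (edgeR adjusted p = 0.544).

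Of the 2 complex V genes with separated groups, Atp5j2, a small membrane subunit, stood at 66.3, 61.7 and 62.2 CPM in the wild-type and 60.9, 54.5 and 48.6 CPM in the knockout libraries. The knockout libraries were all lower and spread more widely, with a log2 fold change of -0.21 (SE 0.0853, edgeR adjusted p = 0.440). The other was one of the 3 genes, Atp5g1, Atp5g2 and Atp5g3, that encode the same mature c subunit, the ring that turns as protons pass. Atp5g2 stood at 80.1, 80.1 and 79.9 CPM against 75.2, 72.5 and 74.1 CPM. Its groups were tight and separate, with a log2 fold change of -0.11 (SE 0.0421, edgeR adjusted p = 0.403). Atp5g3 had a log2 fold change of -0.05. Atp5g2 shares 36.7% of its 50-base sequences with the pseudogene row Gm10175 and 24.2% with Gm10231, so part of its counts could have been split with them. With both added, the wild-type mean was 110.9 ± 2.66 and the knockout mean 101.3 ± 1.74 CPM.

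Atp5g1 (chr11:96068852-96075670, minus strand) was 1 of the subunit rows that varied most between libraries of the same group. It stood at 26.0, 33.8 and 41.4 CPM in the wild-type and 45.6, 39.9 and 26.8 CPM in the knockout libraries, a 1.76-fold range that did not follow genotype (log2 fold change 0.15, edgeR adjusted p = 0.875). A processed pseudogene, Gm10039 (chr11:100361716-100362126, minus strand), matches its coding sequence at 410 of 411 bases. The substitution is G385A, with positions counted from 1 at the start codon, and is shown in capitals in bases 345 to 411 of each (GENCODE M21), because it is the only base by which a read within the coding sequence could be told from the copy.
Atp5g1: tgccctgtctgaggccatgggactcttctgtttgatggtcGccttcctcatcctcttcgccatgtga
Gm10039: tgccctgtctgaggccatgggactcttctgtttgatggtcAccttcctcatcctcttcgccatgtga

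The Gm10039 row ran the other way, at 29.2, 20.1 and 14.1 CPM in the wild-type and 10.9, 10.7 and 21.1 CPM in the knockout libraries. Where Atp5g1 was low, in wild-type library 1 and knockout library 3, Gm10039 was at its highest. Their sum was 55.2, 53.8 and 55.5 CPM in the wild-type and 56.6, 50.6 and 47.9 CPM in the knockout libraries. The sum ranged over 1.18-fold, and its means were 54.8 ± 0.887 and 51.7 ± 4.42 CPM. In a fit with pseudogene counts added to their parent genes, an alternative chosen after seeing the data, the log2 fold change of Atp5g1 was -0.09 in place of 0.15 (edgeR adjusted p = 0.737). Gm10039 was singled out after its values were seen. Of the 50-base sequences of Atp5g1, 6.86% also occur in Gm10039, and whether reads were split between these rows was not tested.

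Cox4i1, the largest nuclear-encoded subunit of complex IV, varied most within groups among the subunit genes of at least 10 CPM. It stood at 116, 172 and 210.1 CPM in the wild-type and 207, 114 and 111 CPM in the knockout libraries. Each group held both high and low libraries, so the range of 1.89-fold did not follow genotype, and the log2 fold change of -0.20 had an edgeR adjusted p of 0.868. Without knockout library 1 it was -0.56 (edgeR adjusted p = 0.527). The gene overlaps Emc8, a membrane protein insertion factor, on the opposite strand, which holds 6.23% of its 50-base sequences. Emc8, looked at after its values were seen, stood at 33.2, 17.8 and 33.7 against 26.1, 37.6 and 43.2 CPM, and the sum of the pair still ranged over 1.63-fold. Cox7a2l, which links complexes III and IV in supercomplexes, stood at 127, 86.3 and 126 against 122, 125 and 114 CPM. Wild-type library 2 alone was low, and without it the log2 fold change of Cox7a2l was -0.07 in place of 0.09 (edgeR adjusted p = 0.753). Most genes spread less. The coefficient of variation within groups had a median of 5.86% over the 76 genes at that level. It was above 10% for 10 of them, with Ndufa12 at 16.5% and Ndufs7 at 14.8% beside 14.5% for Cox7a2l. Ndufa12 and Ndufs7 were picked after their values were seen. Ndufa12 ranged over 1.52-fold alone and over 1.31-fold with its pseudogene row Ndufa12-ps added.

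**Figure D3:**
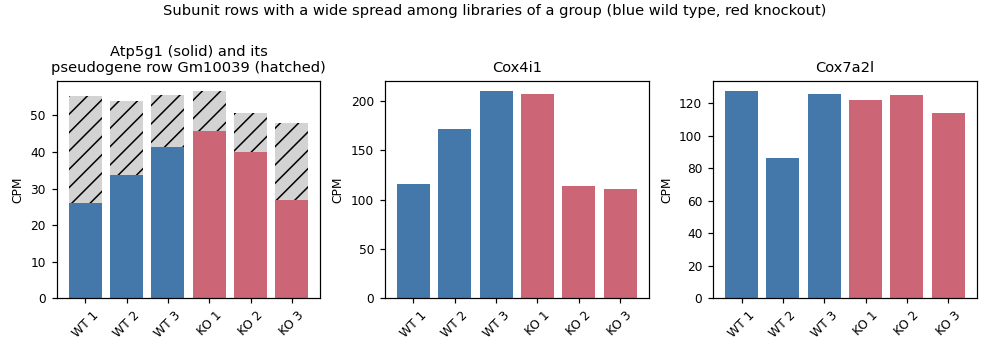
CPM in each library (bars from 0, wild type blue, knockout red) for Atp5g1 with its pseudogene row Gm10039 stacked on top (hatched), Cox4i1 and Cox7a2l. Atp5g1 alone runs from 26.0 to 45.6 CPM while the stack stays between 47.9 and 56.6 CPM, and Cox4i1 is high in wild-type libraries 2 and 3 and knockout library 1.

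Some rows of the set are copies rather than subunits in use. Cox6c2, Ndufa11b, Ndufb4c and Ndufs6b are annotated as processed pseudogenes. Ndufa11b had 0 counts in every library, where 3 counts would be 0.0382 to 0.0441 CPM, while its parent Ndufa11 stood at 13.7 ± 0.882 and 14.7 ± 1.76 CPM. Every 50-base sequence of Ndufb4c also occurs in Ndufb4, and 52.7% of those of Cox6c2 occur in Cox6c, so their counts could come from the parents. Ndufb4c stood at 1.22 ± 0.472 against 1.78 ± 0.356 CPM, beside 27.4 ± 0.383 against 26.3 ± 1.34 CPM for Ndufb4. Cox6c2 stood at 0.561 ± 0.274 against 0.803 ± 0.227 CPM. Ndufs6b had 6 to 16 counts a library, beside 23.0 ± 1.06 against 20.8 ± 1.14 CPM for Ndufs6. Ndufa4, counted here with complex I by its symbol, is now placed in complex IV, and stood at 50.9 ± 2.80 against 50.5 ± 3.72 CPM.

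Levels per length depended on which length was used. The authors' FPKM values fit a gene length proportional to the union of all annotated exons for 78 of 84 genes (within 1% of a common factor of 1.11). That union was at least 2 times the principal transcript for 26 of the 81 genes that have one, up to 11.8 times for Atp5l, a membrane subunit of the ATP synthase. By FPKM Atp5l ranked 15 of 17 in complex V, and per kilobase of principal transcript it ranked 2, at 172 CPM per kilobase. In complex I, Ndufb7 moved from rank 29 to 3 and Ndufb8 from 24 to 5. Cox4i1 moved from 4 to 1 in complex IV, at 203 CPM per kilobase. These genes were picked after their ranks were seen, and a ratio between the genotypes of 1 gene is not affected by its length. The principal transcripts of the subunits were short, with a median of 849.5 bases in 78 tested subunit genes against 2991 bases in 12867 tested coding genes.

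The libraries were also compared over all 81 tested genes. Each gene's log2(CPM + 0.5) was set against its mean over the 6 libraries. The median deviation was -0.01, 0.04 and -0.01 in wild-type libraries 1 to 3 and 0.02, -0.0089 and -0.04 in knockout libraries 1 to 3. Knockout library 3 was the lowest for 24 of the 81 genes (29.6%, against 17.4% of all genes tested) and the highest for 5. Wild-type library 2 was the highest for 20 (24.7%, against 17.3% of all genes tested) and the lowest for 2 (2.47%, against 17.4%). Knockout library 3 was also the library with the most ribosomal RNA, and the part of that in these deviations was not tested. In an edgeR fit with library sizes taken without mitochondrially encoded and ribosomal RNA rows, 0 subunit genes were called. In that fit 9 had an unadjusted p under 0.05.

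**Figure D4:**
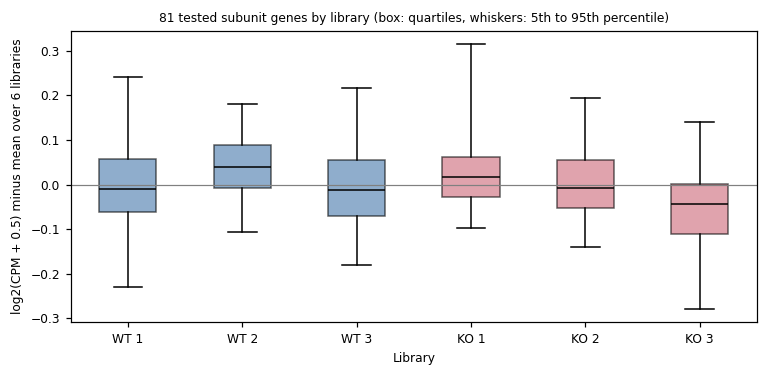
Deviation of log2(CPM + 0.5) from the gene's mean over the 6 libraries, for the 81 tested subunit genes (box, quartiles with the median line; whiskers, 5th to 95th percentile). Medians run from -0.04 in knockout library 3 to 0.04 in wild-type library 2, and the boxes of these 2 libraries overlap only slightly near 0.

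The genes that build, feed and regulate the chain were taken from lists of the same pathway. The 13 mitochondrially encoded subunits, partners of these proteins in complexes I, III, IV and V, lay on 1 side. All 13 were above 0, with a median log2 fold change of 0.28. None passed edgeR's test. At an unadjusted p under 0.05 there were 8, all higher (4.73% of all genes tested were), and DESeq2 called 6, all higher (it called 3.57% of all genes in either direction). For 9 of the 13 the knockout libraries lay above all wild-type libraries (8.68% of all genes). Of these, mt-Nd3, a complex I subunit, stood at 116, 113 and 105 CPM in the wild-type and 142, 163 and 165 CPM in the knockout libraries (log2 fold change 0.49, edgeR adjusted p = 0.0756). The complex V subunit mt-Atp8 stood at 445, 433 and 398 against 529.7, 637 and 615 CPM (0.48, edgeR adjusted p = 0.0796). Together the 13 took 2.0% ± 0.057 of counts in the wild-type and 2.25% ± 0.075 in the knockout libraries, where the nuclear-encoded subunits took 0.493% and 0.494%. Ribosomal RNA rows, not split into mitochondrial and nuclear ones, were higher in the same libraries, and their part in this difference was not tested.

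Assembly factors put the subunits together. For complex I, 15 factors had a median log2 fold change of -0.0056 and none passed edgeR's test. At an unadjusted p under 0.05 there were 2 (13.3%, against 10.4% of all genes tested), and DESeq2 called 1 (it called 3.57% of all genes). Ndufaf4 stood at 7.47, 6.24 and 6.94 CPM in the wild-type and 22.3, 9.33 and 21.0 CPM in the knockout libraries. All knockout libraries were above the wild type but they differed among themselves more than the wild-type libraries did, and the log2 fold change of 1.35 (SE 0.305) had an edgeR adjusted p of 0.166. Ndufaf7, a methyltransferase acting on complex I, had 0.29 (edgeR adjusted p = 0.373). The median was -0.10 over 4 factors of complex II, -0.08 over 6 of complex III, -0.03 over 20 of complex IV and -0.02 over 3 of complex V, with no gene called by edgeR or DESeq2. Of these 33, 1 had an unadjusted p under 0.05 (10.4% of all genes tested did). It was the complex IV factor Coa5, which stood at 259 ± 3.48 against 242 ± 4.42 CPM (log2 fold change -0.10, edgeR adjusted p = 0.394).

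Regulators and neighbours of the chain gave no call in edgeR either. Over 13 regulators of mitochondrial biogenesis the median log2 fold change was 0.0053, with 0 genes at an unadjusted p under 0.05 and 0 called by DESeq2. Tfam, which packages mitochondrial DNA and acts in its transcription, stood at 21.4 ± 1.39 against 23.3 ± 1.09 CPM (edgeR adjusted p = 0.641). Ppargc1a, the coactivator PGC-1α, was near the detection limit at 0.110 ± 0.0923 against 0.263 ± 0.0923 CPM (edgeR adjusted p = 0.640). The medians were -0.03 over 15 genes of ubiquinone synthesis and cytochrome c and -0.00054 over 14 of the tricarboxylic acid cycle, each with 0 genes at an unadjusted p under 0.05 and 0 called by DESeq2. Among 8 uncoupling and carrier proteins, 2 had an unadjusted p under 0.05 (25%, against 10.4% of all genes tested), and DESeq2 called 1. Ucp2 stood at 141, 128 and 132 CPM in the wild-type and 116, 102 and 112 CPM in the knockout libraries. These values did not overlap, and the log2 fold change was -0.28 (SE 0.0645, edgeR adjusted p = 0.173).

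The ribosomal lists show how other large nuclear-encoded sets lay in the same fit. The 78 tested genes of the mitochondrial ribosome had a median of -0.0086, with 0 called by edgeR or DESeq2. At an unadjusted p under 0.05, 3 were lower and 1 higher (5.13% together, against 10.4% of all genes tested). The 77 of the cytosolic ribosome had a median of -0.07 with 67 below 0, and 0 called by edgeR and 1 by DESeq2. At an unadjusted p under 0.05, 12 were lower (15.6%, against 5.71% of all genes tested) and 0 higher. The knockout libraries lay below all wild-type libraries for 20 (26.0%, against 8.89%) and above for 0. The subunits' median of -0.02 lay between these. Whether the lists differed from each other was not tested.

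**Figure D5:**
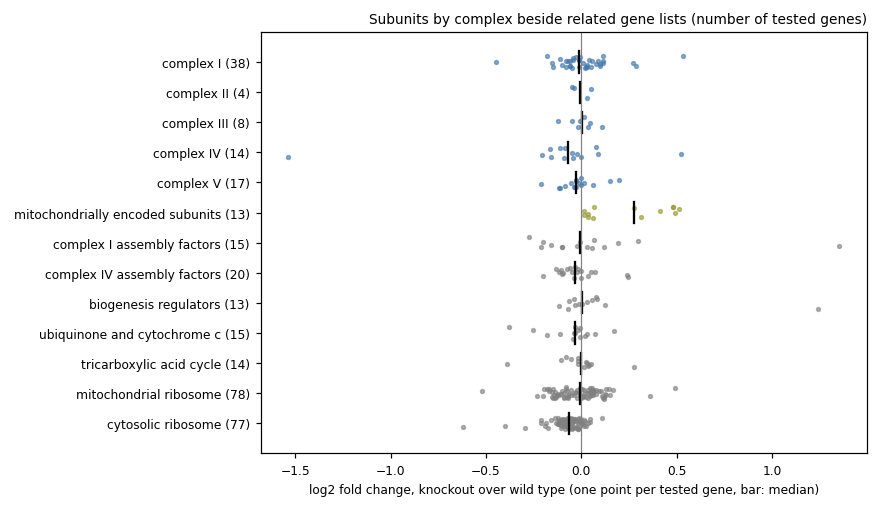
Log2 fold change of knockout over wild type for each tested gene (points) with the list's median (bar), for the nuclear-encoded subunits of each complex (blue), the mitochondrially encoded subunits (olive) and related lists (grey), with the number of tested genes in parentheses. The 5 complexes have medians from -0.07 to 0.0042 and the mitochondrially encoded subunits a median of 0.28.

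Subunits outside the naming rule, chosen after their values were seen, gave like values. Ndufab1, the acyl carrier protein in complex I, stood at 24.2 ± 1.71 against 22.8 ± 1.60 CPM (edgeR adjusted p = 0.790). The row named Ndufb1-ps, annotated as protein coding, stood at 45.1, 36.8 and 36.6 against 34.9, 33.6 and 35.2 CPM, without overlap (log2 fold change -0.19, edgeR adjusted p = 0.525).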

How the data were processed

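Poly(A) RNA was sequenced in pairs on an Illumina NovaSeq, per the labels' protocols, and aligned with HISAT2 2.0, per the submitters' processing notes. Which genome build, annotation, counting tool and strand setting were used is not given in the sources used here. The deposited table holds raw counts per gene and, per the file headers, FPKM values that the authors computed, for the 6 libraries, and 12 further columns that match no sample and were not used. No row lacks a gene name. Promoter windows follow RefSeq, and gene positions are as deposited. The gene positions equal those of GENCODE M21 (GRCm38) for 73 of the 85 subunit genes, including those printed.

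Counts were fitted with edgeR 4.0.16 in R 4.3.3 (filterByExpr, TMM, quasi-likelihood test, knockout against wild type over all 6 libraries) with Benjamini-Hochberg adjustment over all 16239 genes tested and a threshold of 0.05. The script was tested on simulated data. CPM values use TMM-scaled library sizes. Alternatives were size factors by relative log expression, no filter, DESeq2 1.42.0, limma 3.58.1 on log2(FPKM + 1), the replicate number as a block, library sizes without mitochondrial and ribosomal RNA rows, and leaving out each library. Libraries of a group differed by 38.9 to 45.9 chi-square per degree of freedom, so none was a duplicate. Shared sequence was measured as 50-base sequences of GENCODE M21 transcripts found in both genes.

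The subunit genes and the related lists were chosen with earlier results of these data known. Named were Dclk1, any subunit called, the 3 of highest mean FPKM and the 3 of smallest p in each complex, paralogs and isoforms, genes that did not pass the filter and, in related lists, the genes of smallest p.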

Additional observations from a re-analysis of the deposited data

How the results depend on the processing

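The number of genes called over the whole table was 11 with edgeR, 7 without a filter on low counts, 455 with DESeq2, 3 with the replicate number as a block and 8 with pseudogene counts added to parent genes, and ran from 7 to 35 when 1 library was left out (7 without wild-type library 1, 24 without wild-type library 2, 35 without knockout library 1). The number of subunit genes called was 0 in each of these except DESeq2, where it was 1 (Ndufb2, log2 fold change -0.44, adjusted p = 0.0446). The median subunit log2 fold change ran from -0.04 to 0.0032 when 1 library was left out. Same-numbered libraries correlated at 0.0410, 0.0704 and 0.00751 in their deviations from the group means, and those of unlike number at -0.0771 to 0.0310. Such values with 3 libraries a group cannot decide whether same-numbered libraries were handled together, and the labels do not say. With the replicate block no subunit was called and the median was -0.02. In limma on log2(FPKM + 1), Ndufb2 had a log2 fold change of -0.28 (adjusted p = 0.229), on a scale that understates the change of low genes. The alternatives moved 16 single-gene values or list medians beyond their spread, some of them across 0 (Cox7a2l without wild-type library 2 and Atp5g1 with pseudogene counts added among them), none of which had passed the test. With 3 libraries a group, the interval of the fold change lay within 1.2-fold for 47 of the 81 subunit genes and within 1.5-fold for 73.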
